A study of Mus musculus with 6 samples.

Results

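This account follows 8 genes of PI3K-AKT-FOXO signalling, taken by symbol from the 51912 genes of the deposited count table: Eras, Pik3ca, Pik3cb, Pik3r1, Akt1, Akt2, Foxo1 and Foxo3. Messenger RNA was sequenced from R1, a mouse embryonic stem cell line. The cells had been held in the naive state in 2iLIF medium, and all 6 samples were then given N2B27, a serum-free medium, with 100 ng/ml FGF2. The groups differ in time alone, 24 h (3 libraries) or 48 h (3 libraries). Nothing in the labels says that the replicates were separate cultures, so the p-values measure the spread between these samples, which may be technical. Libraries of cells before FGF2, or in N2B27 without it, were not analysed here, and the effect of FGF2 cannot be told apart from that of the new medium or of time in it.

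In this pathway a receptor or an active RAS protein engages a PI3-kinase, which is a catalytic subunit (Pik3ca, Pik3cb) held by a regulatory subunit (Pik3r1). The kinase makes the membrane lipid PIP3, which draws the AKT kinases (Akt1, Akt2) to the membrane, where PDK1 and mTORC2 phosphorylate them. AKT in turn phosphorylates FOXO transcription factors (Foxo1, Foxo3) and keeps them out of the nucleus. Eras is a RAS relative known from embryonic stem cells, active without an upstream signal and described as a promoter of growth through PI3-kinase. These steps act on lipids and proteins, which RNA levels do not measure.

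Among the 8 genes, Foxo1 was higher at 48 h than at 24 h and Eras, Pik3r1, Foxo3 and Pik3cb were lower. The sizes ran from a 1.57-fold rise of Foxo1 to a 26.7% drop of Pik3r1, and no gene of the 8 moved 2-fold. Akt1, Akt2 and Pik3ca did not pass the test. All 8 had enough counts to be tested, so 5 of 8 were called, where 62.8% of the 14889 tested genes were called in edgeR's fit (adjusted p under 0.05, Benjamini-Hochberg over all of them). By direction, 1 of the 8 was higher, against 30.9% of tested genes, and 4 were lower, against 31.9%. For 5 of the 8 the libraries of the times held separate ranges, against 66.9% of tested genes. The shares called and with separate ranges lie near the background of a comparison in which most genes differ. Those by direction lie farther from it but rest on only 8 genes. The shares thus single out nothing about the 8. The median log2 change (the log2 ratio of 48 h over 24 h) of the 8 was -0.13, beside -0.01 over all tested genes. In bulk RNA, fewer cells with a transcript and less of it per cell cannot be told apart.

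**Figure D1:**
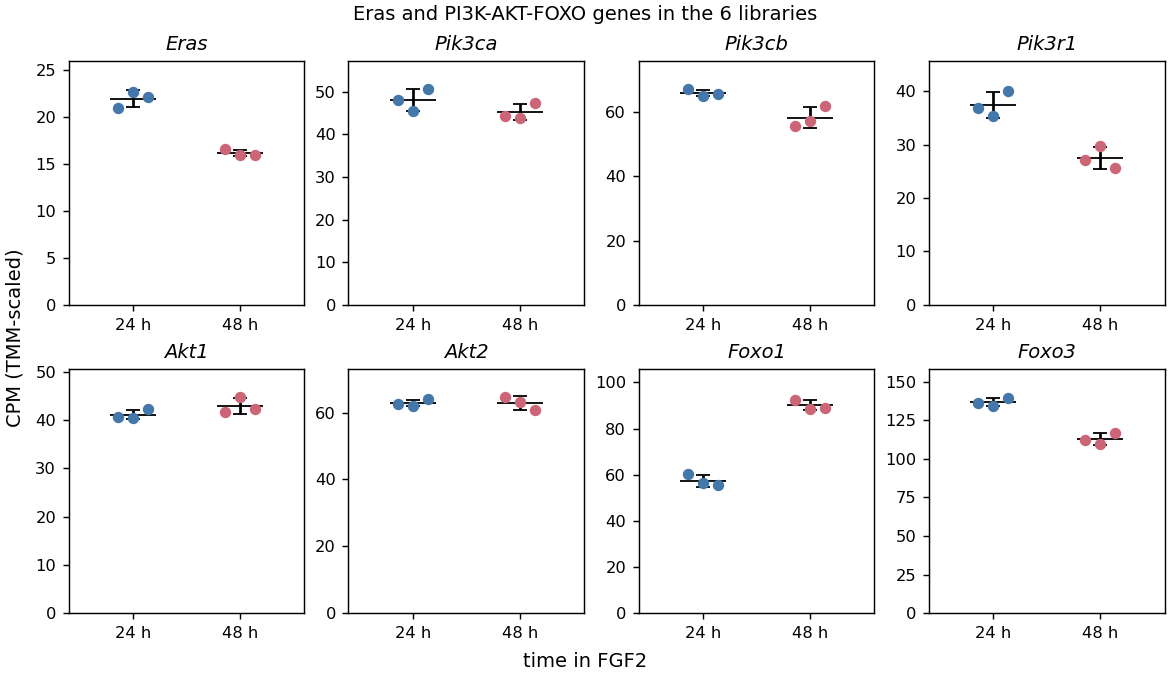
Level of each of the 8 genes in CPM (y axis from 0) at 24 h and 48 h. Points are libraries, bars and lines are the mean and SD of 3. Foxo1 stands near 90.0 CPM at 48 h against 57.3 at 24 h, Eras, Pik3r1, Pik3cb and Foxo3 stand lower at 48 h, and the points of Pik3ca, Akt1 and Akt2 overlap.

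Eras (ENSMUSG00000031160) lies at chrX:7924276-7928607 on the minus strand (GRCm38, GENCODE M21). In CPM (counts per 1000000 of the TMM-scaled library total) it had 21.0, 22.7 and 22.2 at 24 h and 16.6, 16.0 and 16.0 at 48 h. All 3 values at 48 h lay below all 3 at 24 h. Eras fell from 22.0 ± 0.896 to 16.2 ± 0.379 CPM (SD, n = 3), with a log2 change of -0.44 ± 0.06 (standard error; edgeR adjusted p = 1.23e-05). These values rest on 349 to 525 counts per library. Its exons share 135 of 1077 bases (12.5%) with Pcsk1n on the opposite strand, and whether the counting used strand is not given in the sources used here. Pcsk1n, which encodes a neuroendocrine protein, moved the other way, with 73 to 103 counts at 24 h and 98 to 142 at 48 h. The promoter of Eras, from 250 bases before to 50 bases after the RefSeq start, is printed because Eras is the stem cell gene of the group (GRCm38.p6, chrX:7928558-7928857, minus strand, 60.0% G or C).
Eras promoter: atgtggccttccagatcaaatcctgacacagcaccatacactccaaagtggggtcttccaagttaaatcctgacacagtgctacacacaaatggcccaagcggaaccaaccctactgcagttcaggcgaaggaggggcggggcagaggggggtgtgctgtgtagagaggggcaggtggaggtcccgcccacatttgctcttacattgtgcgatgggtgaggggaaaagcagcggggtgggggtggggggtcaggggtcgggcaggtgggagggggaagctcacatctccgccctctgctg
It was searched on both strands for 3 motifs. They were TGTTTAC for FOXO factors, ATGCAAA for octamer-binding factors such as OCT4, and CCGGAAG for ETS factors, of which some act downstream of ERK. None of these letters occurs in this window.

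The relatives of Eras did not all follow it. Of 7 tested RAS genes, 4 rose and 2 fell, where 30.9% of all tested genes rose and 31.9% fell. These shares are the background for the lists that follow too. Hras and Nras, classical RAS genes, rose from 36.5 ± 0.727 to 42.4 ± 0.753 and from 168.8 ± 5.01 to 184.9 ± 2.65 CPM (SD, n = 3). Their log2 changes were 0.22 and 0.13 (edgeR adjusted p = 0.000184 and 0.000277). Nras was at 0.07 with library size as the only scaling (adjusted p = 0.0223). Rras2 rose by 0.35, and Rras fell by 0.43 on the log2 scale. The widest change was that of Mras, whose product is a partner of the SHOC2 phosphatase complex that activates RAF. Mras had 44.6, 47.0 and 50.2 CPM at 24 h and 4.74, 3.79 and 5.32 CPM at 48 h. It fell by 3.36 on the log2 scale with a standard error of 0.08 (edgeR adjusted p = 4.12e-15), leaving 0.0977 of its 24 h level.

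The genes whose pattern over the 6 libraries lay nearest to that of Eras were Cdc37l1, Stk38, Vat1, Cox6b2 and Scrn2. Likeness was the root mean square difference of log2 CPM, each gene centred on its own mean, among 10427 genes with a symbol and a mean of at least 5 CPM. The differences ran from 0.019 for Cdc37l1 to 0.028 for Scrn2, and the log2 changes of these genes from -0.48 to -0.43. With groups at 2 times, the measure mostly finds genes with a change of the same size.

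The PI3-kinase subunit genes differed in how they moved. Pik3r1 (ENSMUSG00000041417, chr13:101680563-101768217, minus strand) encodes the main regulatory subunit, which stabilises the catalytic subunits and holds them at rest. It had 36.8, 35.4 and 40.0 CPM at 24 h and 27.1, 29.8 and 25.6 CPM at 48 h. The groups did not overlap, and Pik3r1 fell from 37.4 ± 2.41 to 27.5 ± 2.14 CPM (SD, n = 3; log2 change -0.45, standard error 0.06, edgeR adjusted p = 5.74e-06). Its log2 change was nearly that of Eras.

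Pik3cb (ENSMUSG00000032462, chr9:99036654-99140621, minus strand), the catalytic beta subunit, had 67.1, 65.1 and 65.5 CPM at 24 h and 55.6, 57.2 and 61.8 CPM at 48 h. It fell by 11.6%, or a log2 change of -0.18 ± 0.04 (standard error; edgeR adjusted p = 0.00103), and the highest 48 h library came close to the 24 h values. Its counts were fractional, so some reads were divided between similar genes. Pik3ca (ENSMUSG00000027665, chr3:32397671-32468486, plus strand), the catalytic alpha subunit often mutated in tumours, had 48.0, 45.4 and 50.7 CPM at 24 h and 44.3, 43.9 and 47.4 CPM at 48 h. These ranges overlap, and its log2 change of -0.09 did not pass the test (edgeR adjusted p = 0.104, with a 95% interval from -0.19 to 0.01). Scaling by library size alone gave a call for Pik3ca (-0.15, adjusted p = 0.00966). So did leaving out replicate 2 of 24 h (-0.13, adjusted p = 0.03) or replicate 3 of 48 h (-0.13, adjusted p = 0.0441).

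Of the other 11 PI3-kinase genes listed, 8 were tested, of which 1 rose and 3 fell. Their median log2 change rounds to 0. Pik3c2b, a class II enzyme, fell from 12.9 ± 0.423 to 6.68 ± 0.559 CPM (SD, n = 3; log2 change -0.96, edgeR adjusted p = 8.73e-08). Pik3r4, the regulatory partner of the class III enzyme in endosomes and autophagy, fell by 0.23 on the log2 scale. Pik3r3, another regulatory subunit of class I, rose by 0.19 (edgeR adjusted p = 0.00763), which lost its call with library size as the only scaling (0.13, adjusted p = 0.0535). Exons of Pik3r3 overlap those of another gene model on the same strand, so its counts are uncertain.

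Akt1 and Akt2 gave the flattest values of the 8. Akt1 (ENSMUSG00000001729, chr12:112653821-112674884, minus strand), the most widely expressed AKT, had 40.7, 40.5 and 42.3 CPM at 24 h and 41.7, 44.9 and 42.3 CPM at 48 h. Its log2 change was 0.06 with a 95% interval from -0.03 to 0.15 (edgeR adjusted p = 0.22). Akt2 (ENSMUSG00000004056, chr7:27591552-27640826, plus strand), known for its part in insulin signalling, had 62.7, 62.1 and 64.0 CPM at 24 h and 64.7, 63.3 and 60.7 CPM at 48 h. Its log2 change was -0.002 with an interval from -0.08 to 0.07 (edgeR adjusted p = 0.966), and its counts were fractional. The libraries of the 2 times interleave for each gene, and the intervals leave room for a change of at most 0.15 on the log2 scale.

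Among 13 promoters of the 8 genes in the RefSeq table, which matched all 8, the FOXO letters occurred in 1, upstream of Akt1, and the ETS letters in 1, upstream of Pik3ca. The octamer letters occurred in none. Of all 32851 promoters of this length, 3.65% held the FOXO letters, 8.86% the ETS letters and 4.63% the octamer letters. The 2 windows of 41 bases are shown because they hold the only matches of the group, in capitals (GRCm38.p6). They lie at chr12:112675022-112675062, minus strand, where the match begins 161 bases before a RefSeq start of Akt1, and at chr3:32397001-32397041, plus strand, where it begins 47 bases before a RefSeq start of Pik3ca, upstream of its GENCODE start, as the reverse complement.
Akt1 window: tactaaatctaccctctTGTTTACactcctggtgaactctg
Pik3ca window: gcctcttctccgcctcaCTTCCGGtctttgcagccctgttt
A match is a run of letters and was not tested as a binding site. Neither Akt1 nor Pik3ca passed the test between the times.

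The FOXO genes went in opposite directions. Foxo1 (ENSMUSG00000044167, chr3:52268336-52353221, plus strand), a forkhead factor described as needed for pluripotency, had 60.1, 56.2 and 55.6 CPM at 24 h and 92.5, 88.5 and 89.1 CPM at 48 h. All 48 h values lay above all 24 h values. Foxo1 rose from 57.3 ± 2.47 to 90.0 ± 2.12 CPM (SD, n = 3), with a log2 change of 0.65 ± 0.04 (standard error; edgeR adjusted p = 1.05e-10). Of the tested genes, 79.2% changed by less in size. Exons of Foxo1 share 674 of 8665 bases with the antisense gene Gm20402, which had between 0 and 2 counts in a library.

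Foxo3 (ENSMUSG00000048756, chr10:42181841-42276755, minus strand), a forkhead factor studied in stem cell quiescence and stress resistance, had 136.0, 134.2 and 139.5 CPM at 24 h and 111.8, 109.6 and 116.7 CPM at 48 h. It fell from 136.5 ± 2.69 to 112.7 ± 3.65 CPM (SD, n = 3), with a log2 change of -0.28 ± 0.03 (standard error; edgeR adjusted p = 3.88e-07). The groups did not overlap. Foxo4, a related factor outside the 8, rose from 70.6 ± 0.393 to 84.9 ± 2.86 CPM (log2 change 0.27, edgeR adjusted p = 2.52e-06), and Foxo6 stood at 1.65 and 1.22 CPM and did not pass the test. The promoters of Foxo1 (chr3:52268087-52268386, plus strand) and Foxo3 (chr10:42276646-42276945, minus strand) are printed because these 2 genes moved apart. The G or C share was 61.3% for Foxo1 and 75.0% for Foxo3, beside a median of 52.7% over all promoters, and neither window held letters of the 3 motifs.
Foxo1 promoter: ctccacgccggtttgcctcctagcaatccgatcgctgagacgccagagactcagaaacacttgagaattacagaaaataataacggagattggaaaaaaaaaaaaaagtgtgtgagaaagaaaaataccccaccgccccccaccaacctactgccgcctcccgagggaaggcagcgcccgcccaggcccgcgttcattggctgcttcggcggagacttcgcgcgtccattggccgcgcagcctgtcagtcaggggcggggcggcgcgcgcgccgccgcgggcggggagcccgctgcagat
Foxo3 promoter: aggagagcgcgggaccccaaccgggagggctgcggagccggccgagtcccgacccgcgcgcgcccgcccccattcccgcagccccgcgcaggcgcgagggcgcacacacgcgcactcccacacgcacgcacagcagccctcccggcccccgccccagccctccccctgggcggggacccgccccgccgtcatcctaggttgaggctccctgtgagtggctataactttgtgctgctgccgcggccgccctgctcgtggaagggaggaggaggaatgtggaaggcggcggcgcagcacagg

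Ratios within a library do not depend on how libraries are scaled. The ratio of Foxo1 to Foxo3, in counts per kilobase of longest transcript, was 0.349, 0.331 and 0.315 at 24 h and 0.654, 0.639 and 0.604 at 48 h. It went from 0.332 ± 0.017 to 0.632 ± 0.026 (SD, n = 3), 1.91 times as high, so Foxo3 remained the more abundant by this measure. The ratio of Pik3ca to Pik3cb was 0.529 ± 0.029 and 0.564 ± 0.012 (SD, n = 3), and its ranges overlapped between the times. Akt1 to Akt2 gave 1.1 ± 0.012 and 1.16 ± 0.058 (SD, n = 3), with overlapping ranges too. With coding length in place of the longest transcript it was 0.655 and 0.685, so which AKT gene stands higher depends on the length used. The ratios are a description and were not tested.

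**Figure D2:**
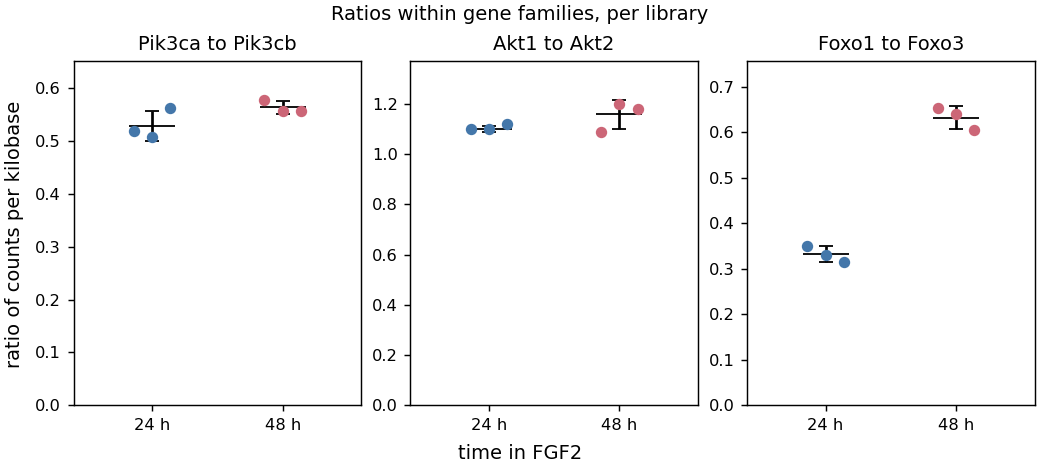
Ratio of counts per kilobase of longest transcript within 3 gene pairs (y axis from 0) at 24 h and 48 h, with libraries as points and mean and SD of 3 as bars and lines. Foxo1 to Foxo3 goes from 0.332 to 0.632, while the points of the other pairs overlap between the times.

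Levels of different genes were compared per kilobase of the longest GENCODE transcript, which misstates a gene that uses a shorter one. At 24 h the order was Eras (20.4 ± 0.83 CPM per kilobase, SD, n = 3), Foxo3 (19.9 ± 0.39), Akt1, Akt2, Pik3cb (10.2), Foxo1 (6.61), Pik3ca (5.39) and Pik3r1 (5.26). Eras and Foxo3 did not differ beyond their spread, and neither did Pik3ca and Pik3r1. At 48 h Foxo3 (16.5 ± 0.53) and Akt1 (16.0 ± 0.62) led with overlapping libraries. Eras followed at 15.0 ± 0.35, and Foxo1, at 10.4, stood above Pik3cb at 8.99. Per kilobase of longest transcript, the short Eras transcript was thus among the most abundant of the 8 at 24 h, though its CPM was the lowest. This order depends on the length used. The longest coding length is 681 bases beside a transcript of 1077 for Eras, and 2016 beside 6848 for Foxo3. An order by coding length is not given here.

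**Figure D3:**
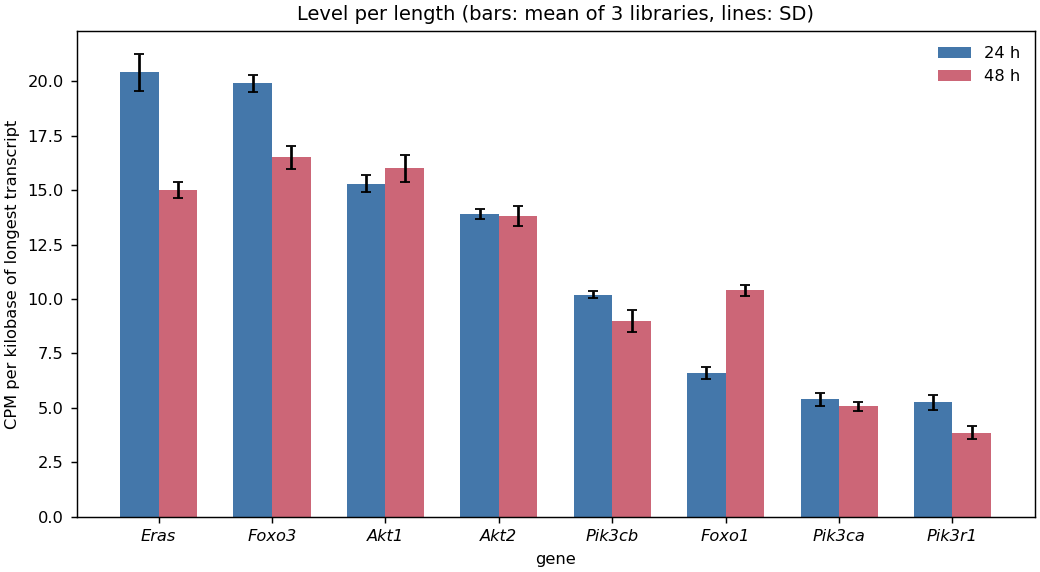
CPM per kilobase of longest transcript for the 8 genes, ordered by their 24 h level. Bars are means of 3 libraries from 0 and lines are SD, and Eras and Foxo3 lead at 24 h with 20.4 and 19.9.

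The rest of the pathway was read from 92 further genes in 9 lists by role, of which 83 were tested. Of these, 32 rose, 32 fell and 19 did not pass, so 64 of 83 were called, beside the 62.8% of all tested genes. The split by direction depends on the scaling: by library size alone 25 of the 83 were higher and 35 lower, and over all tested genes 3779 were higher and 5694 lower, in place of 4600 and 4745. The median log2 change of the 83 was 0.05. At least 2-fold changes were called for 13 of the 83, against 11.2% of all tested genes. Of these 13, 7 were FOXO targets. Without the FOXO targets it was 6 of 65, whose median change in size was 0.23, beside 0.26 for all tested genes.

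Phosphatases that act against the pathway moved in both directions, 3 up and 3 down of 8 tested. Inpp5d, the lipid phosphatase SHIP known from blood cells, rose from 38.5 ± 1.55 to 57.7 ± 1.22 CPM (SD, n = 3; log2 change 0.58, edgeR adjusted p = 2.14e-09). Inpp5k, a phosphatase that limits insulin signalling, fell by 0.48 on the log2 scale (edgeR adjusted p = 4.37e-06). The median of the list was 0.15.

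Of 8 tested receptors and adaptors upstream of PI3-kinase, 4 rose and 1 fell, with a median of 0.1. Irs4, an insulin receptor substrate that recruits PI3-kinase, had 3.9, 4.15 and 3.18 CPM at 24 h and 30.0, 30.3 and 29.0 CPM at 48 h. The rise was 7.99-fold (log2 change 3.0, standard error 0.09, edgeR adjusted p = 2.76e-14). Gab1, an adaptor of FGF and other receptors, was abundant and rose from 506.3 ± 8.13 to 630.7 ± 8.13 CPM (SD, n = 3; log2 change 0.32, edgeR adjusted p = 1.31e-10). Igf1r, the IGF receptor, fell by 0.14 on that scale (edgeR adjusted p = 0.00369). Irs4 and Gab1 overlap antisense gene models.

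Among 12 kinase and cofactor genes around AKT, 5 rose and 5 fell, where 62.8% of all tested genes were called. The median of the 12 was 0.05. Pdpk1, which encodes PDK1, had 137.9, 134.0 and 142.1 CPM at 24 h and 99.1, 96.7 and 98.9 CPM at 48 h. It fell by 28.9% (log2 change -0.49, standard error 0.03, edgeR adjusted p = 2.28e-10). Tcl1, a cofactor that binds AKT and is a naive pluripotency gene, went from 60.7 ± 1.41 to 11.1 ± 1.28 CPM (SD, n = 3; log2 change -2.45, edgeR adjusted p = 2.16e-15). Sgk1, a kinase related to AKT that also phosphorylates FOXO proteins, had 122.5, 125.7 and 130.3 CPM at 24 h and 289.2, 289.6 and 292.1 CPM at 48 h. Its rise was 2.3-fold (log2 change 1.2, edgeR adjusted p = 2.8e-16). PDK1 phosphorylates SGK1 as it does AKT, and the genes for this pair moved in opposite directions.

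Mtor and Rictor differed little between the times. Mtor, the kinase of both complexes, had a log2 change of 0.07 (edgeR adjusted p = 0.0285) and lost its call in 8 of 16 alternatives, where its adjusted p ran up to 0.87 with library size as the only scaling. It also lost it without replicate 1 (0.0569) or 3 (0.122) of 24 h and without replicate 1 (0.0544) or 2 (0.0728) of 48 h. Rictor, which defines mTORC2, stood at 0.05 and did not pass (edgeR adjusted p = 0.153), and scaling by library size alone turned its sign (-0.01). Of 12 tested genes of the TSC-mTORC1 arm, 5 rose and 4 fell, with a median of 0.05. Ddit4, a stress-induced inhibitor of mTORC1, rose from 40.5 ± 3.88 to 69.8 ± 1.89 CPM (SD, n = 3; log2 change 0.78, edgeR adjusted p = 1.22e-09). The S6 kinase genes parted, Rps6kb1 rising by 0.45 and Rps6kb2 falling by 0.32 on the log2 scale, and each overlaps genes on the opposite strand. Tsc2, a brake on mTORC1, had -0.04 (edgeR adjusted p = 0.155) and was called with library size as the only scaling (-0.1, adjusted p = 0.00174). Exons of Tsc2 overlap Pkd1 on the other strand.

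Of 8 tested genes for other AKT substrates, 2 rose and 4 fell, with a median of -0.12. Gsk3b, a kinase that AKT inhibits and that one of the 2i inhibitors targets, fell by 0.23 on the log2 scale (edgeR adjusted p = 2.79e-06). Mdm2, the ubiquitin ligase of p53, rose by 0.27 (edgeR adjusted p = 5.36e-07, with fractional counts). Pfkfb2, a glycolysis regulator, and Bad, a pro-apoptotic gene, fell by 0.44 and 0.41. Each of them had under 10 CPM and overlaps other genes.

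Genes described as FOXO targets split by direction. Of 22 listed, 18 were tested, 7 rose, 10 fell and 1 did not pass, where 62.8% of all tested genes were called. The median log2 change of the 18 was -0.35, beside -0.01 for all tested genes. In size their median change was 0.74, beside 0.26. Sesn3, a stress-response gene that restrains mTORC1, rose from 52.7 ± 1.09 to 113.5 ± 1.71 CPM (SD, n = 3; log2 change 1.11, edgeR adjusted p = 1.71e-14). Fbxo32, the ubiquitin ligase atrogin-1 of muscle wasting, had 2.84 to 5.32 CPM at 24 h and 9.39 to 10.9 CPM at 48 h (log2 change 1.33, edgeR adjusted p = 1.23e-06). Exons of Fbxo32 overlap the antisense gene model Gm15943. Klf15, a metabolic regulator, fell from 19.8 ± 0.96 to 8.59 ± 0.517 CPM (SD, n = 3; log2 change -1.2, edgeR adjusted p = 9.83e-10). The list was compiled from general knowledge and not from these cells, but with earlier results of these data known. Its medians beside those of all tested genes are thus a description only. The genes did not share a direction. The FOXO letters were found in 5 of 25 promoters of this list (20.0%), beside 3.65% of all promoters, in Bbc3, Bcl2l11, Sesn1, Trim63 and Txnip. Of these genes, Bbc3 and Bcl2l11 rose, Sesn1 and Trim63 fell and Txnip did not pass the test. The share is a description and was not tested.

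**Figure D4:**
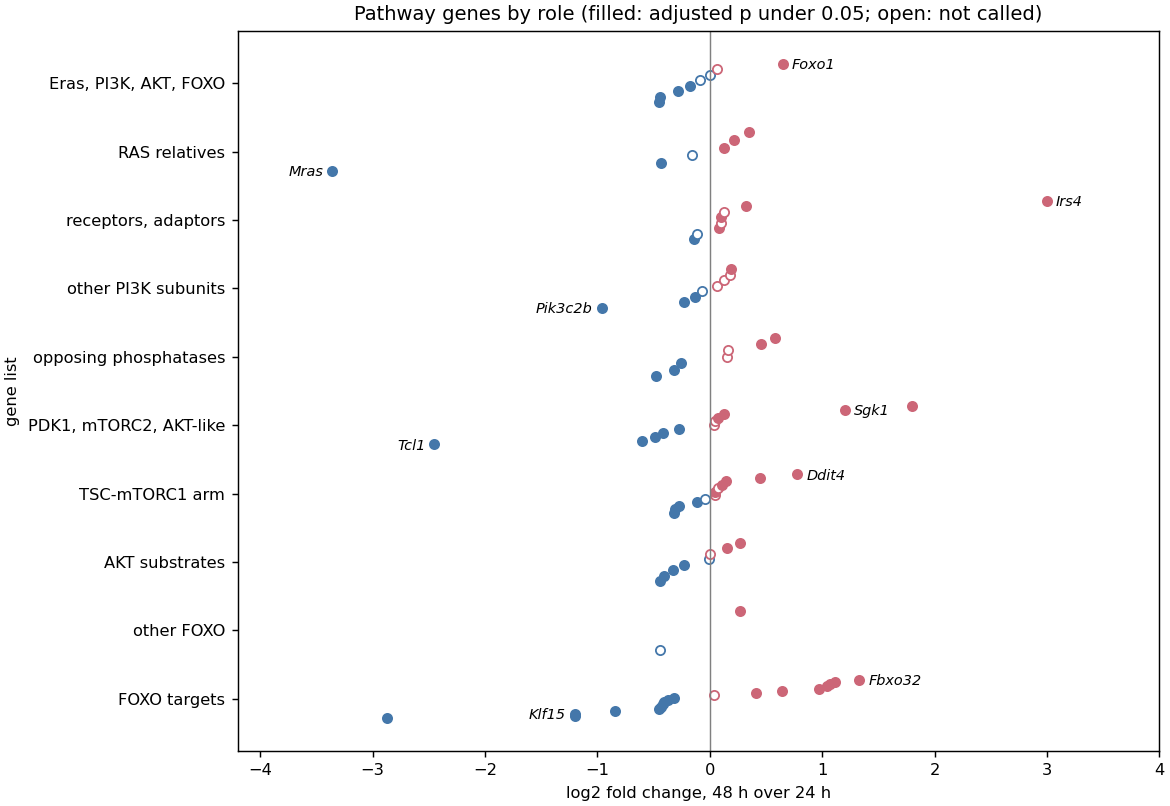
Log2 fold change of 48 h over 24 h (x axis) for tested genes of the 8 and of the 9 lists of other pathway genes (y axis). Filled points passed an adjusted p under 0.05, open points did not, red is higher and blue lower at 48 h, and Mras, Irs4, Sgk1 and Tcl1 lie farther out than any of the 8.

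The libraries held between 19574969 and 23133148 estimated counts. Embryonic stem cell markers summed to between 5127.1 and 5181.3 CPM at 24 h and between 3647.5 and 3726.4 at 48 h, with all 8 detected. Of these, 6 were lower at 48 h, among them Pou5f1 (log2 change -0.07) and Nanog (-1.99). The 2 higher at 48 h were Utf1 (0.6) and Lin28a (1.55). Fibroblast feeder markers summed to at most 3.83 CPM in a library, with Lum and Postn at 0 in all 6. Primitive endoderm markers summed to between 9.31 and 11.1 CPM at 24 h and between 5.58 and 6.31 at 48 h, 6 of 6 detected. Of the endoderm markers Gata4 alone was called (5.84 and 2.25 CPM, log2 change -1.38). Pdgfra and Dab2 did not pass, and Gata6, Sox17 and Sox7 were below the filter on low counts. Of the feeder markers, Dcn and Col1a1 were called, in opposite directions. Dcn had 0 counts at 24 h and 23, 25 and 32 at 48 h. Col1a1 had 16, 21 and 30 counts at 24 h and 4, 9 and 7 at 48 h (log2 change -1.76). Thy1 did not pass, and Col1a2, Col3a1, Lum and Postn were below the filter. The part of these marker levels in the results above was not tested.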

How the data were processed

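The authors deposited a table of estimated counts per gene from RSEM, not scaled for depth or length. The submitters' processing notes name cutadapt 1.9.1, STAR 2.5.2, RSEM 1.3.0 and the build GRCm38. The annotation release and the use of strand are not given in the sources used here. Every column matched a sample title. Symbols, lengths and positions came from GENCODE M21 (GRCm38) and promoters from RefSeq (GRCm38.p6).

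Counts were rounded, filtered with filterByExpr (minimum count 10), scaled by TMM and tested with edgeR 4.0.16 (R 4.3.3, glmQLFit and glmQLFTest, group only) on all 14889 genes kept. The standard error is the size of the log2 change over the square root of F. Intervals use the t distribution at the 95% level. On simulated counts for this comparison, 200 of the 14889 genes were given a change. Of these, 85.6% of genes with a log2 change of 0.5 or more were recovered, and 32.5% of those with 0.25. In the data 62.8% of tested genes were called, so the same adjusted threshold admits larger unadjusted p-values there. The recovered shares therefore do not carry over to the data.

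The members, the lists and the naming rule were chosen with earlier results of these data known. Named are the 8 genes, up to 3 called genes per list with the largest change and a mean of at least 5 CPM, 11 further pathway genes whatever their values (3 of them neither reported nor drawn here), the 5 genes nearest to Eras, and marker genes. Pcsk1n and Gm20402 were named for their overlap. Foxo6, the FOXO targets with promoter matches and the pathway genes listed last for low counts were named after their values were seen. Alternatives were other scalings (RLE, upper quartile, library size only), other filters, DESeq2 1.42.0, limma voom (limma 3.58.1), unrounded counts, a replicate block, a threshold of 0.01 and leaving out each library.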

Additional observations from a re-analysis of the deposited data

How the results depend on the processing

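Eras, Pik3r1, Pik3cb, Foxo1 and Foxo3 held both direction and call in all 16 alternatives, with log2 changes from -0.5 to -0.42, -0.51 to -0.39, -0.24 to -0.14, 0.59 to 0.69 and -0.34 to -0.26. Akt1 passed in none. Pik3ca gained a call in 3 (values above). Akt2, not called anywhere, changed sign with RLE (0.01), with DESeq2 (0.01), without replicate 3 of 24 h (0.01) or of 48 h (0.02), and ran from -0.02 to 0.02 as single libraries were left out. Rictor, not called, turned to -0.01 with library size as the only scaling. That setting shifted the median of all tested genes by -0.06, and smaller changes depend on it. The count of called genes among the 8 was 5 or 6 and among the 83 others between 57 and 64. Leaving out 1 library gave 5 to 6 and 59 to 62.

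With the replicate block 5 of the 8 and 63 of the others were called, and 9235 of all tested genes. Libraries of 1 number gave deviations from the group means with correlations of -0.046, -0.043 and -0.009 over the genes, so no pairing by number was found. The ratio levels depend on the length used. With coding length Foxo1 to Foxo3 was 0.433 and 0.824 at 24 h and 48 h, Pik3ca to Pik3cb 0.726 and 0.774, and Akt1 to Akt2 0.655 and 0.685. With no length they were 0.42 and 0.8, 0.729 and 0.776, and 0.654 and 0.684. Akt1 thus stands above Akt2 only with the longest transcript among these 3 settings. Leaving out 1 library moved the 48 h ratio of Foxo1 to Foxo3 between 0.621 and 0.647.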

Other observations

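Several genes of the pathway that are known from other tissues were at or near 0 in these cells. Pik3cg, the class I catalytic gamma subunit of blood cells, had 2 counts over the 6 libraries, and Pik3r6, of its regulatory partners, had 1. Pik3c2g, a class II enzyme of liver, had 0. Of the FOXO targets known from liver, G6pc and Igfbp1 had 0 counts and Pck1 had 1, and Tnfsf10, a death ligand, had 0. The adaptors Gab2 and Pik3ap1 were below the filter on low counts, with 6 to 12 and 3 to 9 counts per library.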
